A study of Mus musculus with 16 samples.

Results

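The genes described here are 7 mouse genes of scavenger and related endocytic receptors, Olr1, Msr1, Marco, Cd36, Scarb1, Scarb2 and Mrc1, which were listed by name, with earlier results of these data known. All 7 had a row among the 9614 genes of the RNA-seq table. The table held 16 libraries of bone-marrow-derived macrophages (BMDM), which are macrophages grown in culture from marrow, from 6 male C57BL/6 mice aged 8 weeks in the labels. Cells of 3 LysM-Cre:NELF-B wt/wt mice (WT) and of 3 LysM-Cre:NELF-B fl/fl mice (NELF-B KO) were left untreated (2 libraries per genotype), were given 10 ng/ml of the bacterial cell wall component LPS for 1 hr (3 libraries per genotype), or were given LPS together with 100 nM of the glucocorticoid dexamethasone (Dex) for 1 hr (3 libraries per genotype). Mice of both genotypes are named LysM-Cre in the labels. This driver directs Cre to myeloid cells, where in fl/fl mice it removes floxed exon 4 of Nelfb, which encodes a subunit of the NELF complex that holds RNA polymerase II near promoters. The WT mice are written here as WT-A, WT-B and WT-C and the NELF-B KO mice as KO-A, KO-B and KO-C, and WT-C and KO-C have no untreated library. The letters are names given here from partial labels. A printed date is shared by the KO-B libraries and the untreated WT-B library (the B mice), the labels of WT-C and KO-C carry an S number that differs in each library (the C mice), and of the mice left over (the A mice) KO-A carries a date of its own and WT-A none. The labels do not call any of these sets a batch. Dex was given only together with LPS, so its change is always LPS + Dex against LPS.

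Scavenger receptors are cell-surface proteins that bind modified lipoproteins, bacteria and dying cells, and macrophages use them to clear such material and to load themselves with cholesterol. They are grouped by structure rather than by descent. Class A receptors (Msr1 and Marco) are trimers with a collagen-like stalk, class B receptors (Cd36, Scarb1 and Scarb2) cross the membrane at both ends, and the class E receptor Olr1 has a C-type lectin-like head. Mrc1, the macrophage mannose receptor CD206, takes up glycoproteins through a row of lectin domains and is a marker of alternatively activated macrophages.

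Olr1, which encodes the oxidised LDL receptor LOX-1, lies at chr6:129485244-129507165 on the minus strand (GENCODE vM21 on GRCm38, the assembly also named mm10). Msr1 lies at chr8:39581685-39642673, Marco at chr1:120474538-120505024, Cd36 at chr5:17781690-17888801, Scarb2 at chr5:92441314-92506833 and Scarb1 at chr5:125277087-125341094, all on the minus strand. Mrc1 lies at chr2:14229392-14332057 on the plus strand. No other annotated gene overlaps Olr1, Msr1, Marco or Cd36. Mrc1 holds the microRNA gene Mir511 and Scarb1 the gene model Gm42633 on their own strand, and Mir6415 overlaps Scarb2 on the opposite strand. Whether the reads were counted by strand is not given in the sources used here.

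RefSeq promoter windows of GRCm38.p6 were given for 5 of the 7 genes and not for Msr1 and Scarb1. Each runs from 250 bases before to 50 bases after a start site of the gene. The Cd36 window (chr5:17835847-17836146) and the Scarb2 window (chr5:92505608-92505907) lie inside the GENCODE extents given above. They therefore do not cover the outermost annotated start of these 2 genes. The stretches before the start of Olr1 and of Marco are shown because Olr1 was the receptor that moved with treatment and Marco the one that moved most between mice. Each line is 250 bases long, 5′ to 3′ on the strand of the gene. The Olr1 line is chr6:129507166-129507415 and the Marco line is chr1:120505025-120505274, both on the minus strand. Capitals mark matches to the AP-1 motif TGANTCA and to the PU.1 core GAGGAA, each searched on both strands.
Olr1: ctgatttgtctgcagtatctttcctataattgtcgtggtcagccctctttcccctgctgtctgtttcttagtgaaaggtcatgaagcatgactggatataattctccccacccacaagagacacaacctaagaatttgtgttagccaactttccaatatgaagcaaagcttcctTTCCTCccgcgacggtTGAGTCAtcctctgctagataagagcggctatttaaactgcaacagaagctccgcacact
Marco: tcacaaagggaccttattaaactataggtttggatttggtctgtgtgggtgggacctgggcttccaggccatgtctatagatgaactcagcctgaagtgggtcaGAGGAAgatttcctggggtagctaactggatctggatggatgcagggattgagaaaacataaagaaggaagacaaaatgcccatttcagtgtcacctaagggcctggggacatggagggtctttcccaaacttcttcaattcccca

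The Olr1 line held an AP-1 match, TGAGTCA, whose first base is at position -60 from the start, and a PU.1 core read on the opposite strand (TTCCTC) from position -76. The same AP-1 motif was found in 7.81% of all 32851 promoter windows and in the window of Olr1 as the only one of these 5 genes. The PU.1 core was found in 28.3% of all windows. Among the 5 genes it occurred 3 times in the Mrc1 window and once each in those of Olr1 and Marco, and not in those of Cd36 or Scarb2. The glucocorticoid response element, searched as the half-sites AGNACA and TGTNCT with 3 bases between them, was in none of the 5 windows and in 0.0639% of all windows. Its half-site AGAACA (19.0% of all windows) and the TATA box TATAAA (13.6% of all windows) were also in none of the 5. An NF-kB match was found in the Scarb2 window alone, against 8.46% of all windows. A match describes the letters of a window and no binding was measured in these libraries.

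Depth recovered from the deposited values was 25000000 to 49700000 reads per library, and 3 reads corresponded to 0.0653 to 0.136 CPM (reads per library scaled to a common total). Nelfb was at 5.59 to 6.21 log2 CPM in the 8 WT and at 3.27 to 4.38 in the 8 NELF-B KO libraries. The highest NELF-B KO values, 4.21 to 4.38, were those of KO-B. With LPS, Tnf and Il1b changed by 5.96 and 7.60 in the WT and by 6.06 and 8.44 in the NELF-B KO, and with Dex the glucocorticoid-induced genes Tsc22d3, Fkbp5 and Per1 changed by 3.80, 2.86 and 2.15 in the WT and by 3.82, 3.10 and 2.21 in the NELF-B KO (limma adjusted p at most 4.9e-05 for these 10 values). Of 10 macrophage markers 9 had a row, with a summed level of 7715 to 10298 CPM in the libraries. The untreated library of WT-A stood apart from the rest, since its r across genes with the rest was 0.83 to 0.909, where the 15 remaining libraries had 0.924 to 0.993 with one another. In the 6 libraries of the B mice, the 4 measured of 9 dendritic cell markers summed to 156 to 183 CPM, against 15.7 to 37.2 CPM in the other 10. All comparisons were tested on log2 CPM with limma's moderated test in 1 fit of all 16 libraries without the mouse as a block. A gene was called at an adjusted p under 0.1, with p-values adjusted over all 9614 genes by the Benjamini-Hochberg method. Results with the mouse as a replicate block stand beside those whose call it changed. Each mouse has 1 genotype, so NELF-B KO against WT could not be fitted with this block.

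The receptors differed widely in level. In untreated WT BMDM the mean level per length, in log2 CPM per kilobase of annotated exon, was 9.13 ± 0.34 for Cd36 (SD, n = 2), 8.47 ± 0.55 for Marco, 5.64 ± 0.14 for Msr1, 5.52 ± 0.87 for Mrc1, 5.15 ± 0.53 for Scarb2, 3.93 ± 0.39 for Scarb1 and -1.73 ± 0.94 for Olr1. On this scale Cd36, a receptor for oxidised LDL and long-chain fatty acids, was the most abundant and Olr1 the least. The ranges of Msr1 and Mrc1 overlapped, as did those of Mrc1 and Scarb2, so the order of these neighbours was within their spread. With LPS, Olr1 reached 3.27 ± 0.70 in the WT (n = 3), just under Scarb1 at 3.95 ± 0.20, with no overlap of their libraries. In NELF-B KO BMDM with LPS Olr1 was at 3.69 ± 0.37 and Scarb1 at 3.92 ± 0.09 (n = 3), and their libraries overlapped.

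Olr1 rose with LPS in both genotypes and was lower again with Dex, while the same-animal changes of the 6 other receptors lay between -1.05 and 0.99. In untreated WT BMDM it was at 0.77 log2 CPM in mouse A and -0.56 in mouse B, which correspond to 37 and 20 reads. With LPS it was at 5.53, 4.30 and 5.50 log2 CPM in WT-A, WT-B and WT-C. In untreated NELF-B KO BMDM it was at 1.30 in mouse A and 0.28 in mouse B, and with LPS at 5.67, 5.80 and 5.11 in mice A, B and C. The lowest LPS library (4.30) was above the highest untreated library (1.30), and WT-B was the lowest library of both WT groups.

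The LPS change of Olr1 was 5.00 on the log2 scale in the WT (SE 0.55, limma adjusted p = 5.4e-05), or 32.1-fold, and 4.74 in the NELF-B KO (SE 0.55, limma adjusted p = 9.6e-05), or 26.7-fold. It was the only 1 of the 7 genes called in either comparison. Of all genes, 12.3% were called for LPS in the WT and 4.78% in the NELF-B KO. Within the same animal the rise was 4.76 in WT-A, 4.86 in WT-B, 4.37 in KO-A and 5.52 in KO-B. A positive change in all 4 of these mice was seen for 2 of the 7 genes (Olr1 and Msr1) and for 21.9% of all genes.

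With LPS + Dex, Olr1 was at 3.64, 1.96 and 3.58 log2 CPM in WT-A, WT-B and WT-C. In the NELF-B KO it was at 3.76, 3.62 and 3.28. Each of these 6 libraries was below every LPS library and above every untreated library of both genotypes. Within the same animal Dex changed Olr1 by -1.89, -2.33 and -1.92 in WT-A, WT-B and WT-C and by -1.91, -2.18 and -1.84 in KO-A, KO-B and KO-C, so it was lower in 6 of 6 mice. A negative change in all 6 mice was seen for 2 of the 7 genes (Olr1 and Msr1) and for 10.4% of all genes.

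The Dex change of Olr1 was -2.05 in the WT (SE 0.49, 95% interval -3.12 to -0.98), which is 4.14-fold lower, and -1.98 in the NELF-B KO (SE 0.49, interval -3.05 to -0.91), which is 3.94-fold lower. Neither passed the threshold without the block, with limma adjusted p = 0.113 and 0.116. The spread that this fit sets against the change includes the lower level of WT-B in every condition. With mouse as replicate block, the SE was 0.20 in both genotypes and the limma adjusted p was 0.00125 in the WT and 0.00123 in the NELF-B KO. The number of receptors called for Dex was thus 0 of 7 in each genotype without the block, with 1 at an unadjusted p under 0.05, and 1 of 7 with the block. A voom fit of the recovered reads, also in limma, called 1 of 7 in each genotype. Of all genes, Dex called 0.988% in the WT and 1.28% in the NELF-B KO without the block, and 2.87% and 3.35% with it. With the block the LPS change of Olr1 was 4.78 in the WT and 4.91 in the NELF-B KO (SE 0.23 in both).

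With Dex part of the LPS increase of Olr1 remained. On the linear CPM scale, and in the 4 mice that had all 3 libraries, the level with LPS + Dex was still 7.31-fold and 5.74-fold above untreated in WT-A and WT-B, and 5.50-fold and 10.1-fold in KO-A and KO-B. The part of the LPS increase that remained was 24.1% and 17% in WT-A and WT-B and 22.8% and 20.3% in KO-A and KO-B. The shares of both genotypes lay in 1 range, from 17% to 24.1%.

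**Figure D1:**
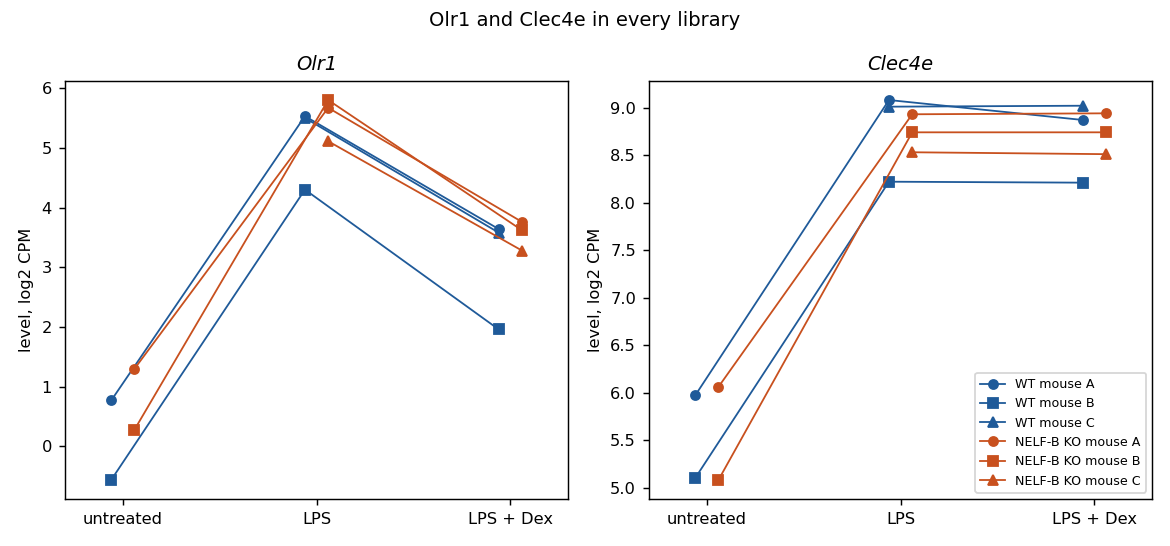
Levels of Olr1 (left) and Clec4e (right) in log2 CPM in every library, by treatment, with WT in blue, NELF-B KO in orange, a symbol for each mouse and lines joining the libraries of 1 mouse. Olr1 rose with LPS in each of the 4 mice with an untreated library and was lower with Dex in 6 of 6 mice, while Clec4e rose by 2.87 to 3.66 with LPS and moved by -0.21 to 0.01 with Dex.

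Msr1, the class A receptor for acetylated and oxidised LDL, lay between 8.12 and 8.73 log2 CPM in all 16 libraries. It was at 8.41 and 8.21 log2 CPM in untreated WT-A and WT-B and at 8.65, 8.28 and 8.73 with LPS in WT-A, WT-B and WT-C. With LPS + Dex the WT values were 8.50, 8.20 and 8.63. In the NELF-B KO it was at 8.36 and 8.35 untreated, at 8.45, 8.57 and 8.14 with LPS, and at 8.42, 8.50 and 8.12 with LPS + Dex. The groups overlapped. The same-animal change was positive with LPS in 4 of 4 mice (0.07 to 0.24) and negative with Dex in 6 of 6 (-0.15 to -0.02), and no treatment comparison of Msr1 was called with or without the block. Without the block the LPS change was 0.25 in the WT (95% interval -0.15 to 0.64) and 0.03 in the NELF-B KO (-0.36 to 0.43). In an added fit with the block and without the untreated library of WT-A, Msr1 was called for LPS in the NELF-B KO (0.15, limma adjusted p = 0.0145) and for Dex in the WT (-0.11, limma adjusted p = 0.0764).

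Marco, a class A receptor that binds bacteria and particles, differed between mice far more than between treatments. In the B mice it was at 9.80, 10.00 and 9.91 log2 CPM in the WT (untreated, LPS and LPS + Dex) and at 9.71, 9.84 and 9.73 in the NELF-B KO. In the A mice it was at 9.03, 7.98 and 7.96 in the WT and at 8.20, 8.24 and 8.29 in the NELF-B KO. In the C mice it was at 9.10 and 9.07 with LPS and LPS + Dex in the WT and at 8.74 and 8.63 in the NELF-B KO. All 6 libraries of the B mice thus lay above the other 10, in both genotypes and every treatment.

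Scarb2, the class B family protein LIMP-2 of the lysosomal membrane, had the opposite order, at 7.36 to 7.57 log2 CPM in the B mice and at 7.66 to 8.18 in the other 10 libraries. The libraries of the B mice lay outside the range of the other 10 for these 2 of the 7 genes and for 10.3% of all genes. The class II antigen presentation genes H2-Aa (6.22 to 6.63 against 1.00 to 3.68 log2 CPM) and H2-Ab1 (5.81 to 6.02 against 2.29 to 3.93) were higher in the libraries of the B mice, as was the chemokine receptor gene Ccr7 (2.18 to 3.33 against -1.12 to 0.52). The dendritic cell marker Itgax overlapped (3.30 to 4.28 against 2.56 to 4.15). Of the 9 measured macrophage markers 3 lay outside the range of the other 10 libraries, in both directions. Cd68 was lower in the libraries of the B mice (10.03 to 10.17 against 10.39 to 10.89). Itgam (10.54 to 10.82 against 9.31 to 10.52) and Cd74 (8.53 to 8.79 against 3.94 to 5.82) were higher. The summed macrophage markers overlapped, at 7715 to 10298 CPM in the B mice and 7763 to 10004 CPM in the other 10. The 5 measured of 10 stromal, endothelial and red cell markers summed to 361 to 725 CPM in the libraries of the B mice and to 172 to 285 CPM in the other 10. The 2 measured of 10 lymphocyte markers summed to 68.9 to 94.8 against 19.2 to 62.5 CPM, and the 1 measured of 10 neutrophil and progenitor markers to 5.46 to 20.6 against 13.3 to 41.5 CPM. The part of these cell type markers in the levels of Marco and Scarb2 was not tested, and in bulk RNA fewer cells of a type cannot be told apart from less RNA per cell.

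**Figure D2:**
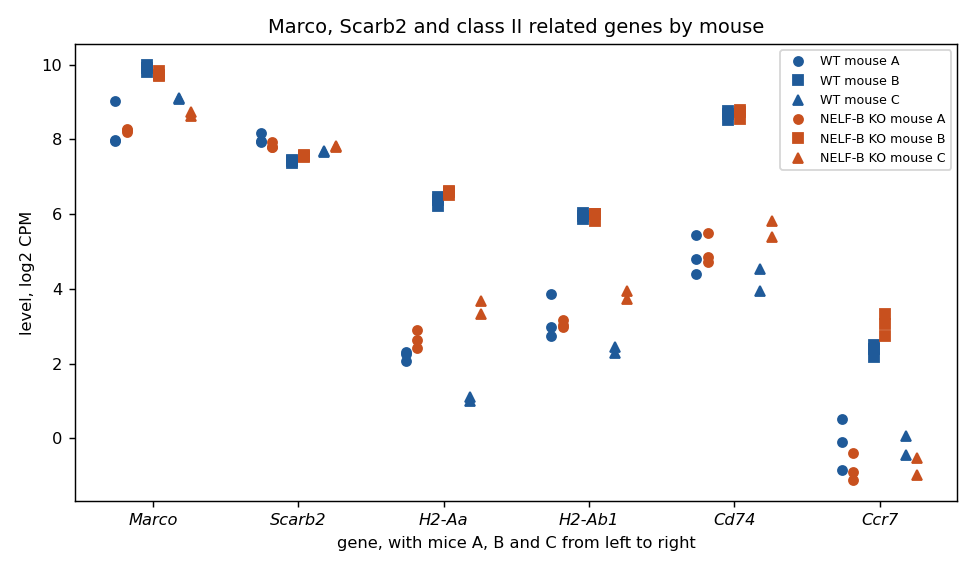
Levels in log2 CPM of Marco, Scarb2, H2-Aa, H2-Ab1, Cd74 and Ccr7 in all 16 libraries, with mice A, B and C from left to right within each gene, WT in blue and NELF-B KO in orange. The libraries of the B mice (squares) lie above the other 10 for Marco (9.71 to 10.00 against 7.96 to 9.10) and for H2-Aa, H2-Ab1, Cd74 and Ccr7, 4 genes chosen after their values were seen, and below them for Scarb2.

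No treatment comparison of Marco or Scarb2 was called with or without the block, and no comparison of the genotypes was called without it. For Marco the LPS change without the block was -0.39 in the WT (95% interval -1.94 to 1.16) and -0.02 in the NELF-B KO (-1.57 to 1.53). These intervals include the differences in level between mice. With the block the LPS change of Marco was -0.43 in the WT and 0.10 in the NELF-B KO (SE 0.24 in both). Within the same animal Marco changed with LPS by -1.05 in WT-A, whose untreated library stands apart, and by 0.19, 0.04 and 0.13 in WT-B and KO-A and KO-B. With the block and without that library, the LPS change of Marco in the WT was 0.17 (limma adjusted p = 0.0725), a value that rests on mouse B for its untreated level. Its Dex changes were -0.11 to 0.05. For Scarb2 the LPS changes in the same animal were -0.23 to 0.01 and the Dex changes -0.07 to 0.04.

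Cd36 and Mrc1 showed their largest departure in the same untreated library. Cd36 was at 10.74 log2 CPM in untreated WT-A and at 11.19 to 11.52 in the other 15 libraries. It was at 11.21 in untreated WT-B and at 11.49, 11.24 and 11.23 with LPS in WT-A, WT-B and WT-C. The same-animal LPS change of Cd36 was 0.75 in WT-A and 0.02, -0.02 and -0.07 in WT-B and KO-A and KO-B. Without the block the LPS change was 0.34 in the WT (limma adjusted p = 0.167) and -0.10 in the NELF-B KO (limma adjusted p = 1). With the block the WT value was 0.38 and was called (limma adjusted p = 0.0939).

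Mrc1 was at 7.57 log2 CPM in untreated WT-A and at 8.10 to 9.08 in the other 15 libraries. The same-animal LPS change was 0.99 in WT-A and 0.00, 0.00 and 0.04 in WT-B and KO-A and KO-B. Without the block the WT change was 0.30 (limma adjusted p = 0.558), and with it 0.50 (limma adjusted p = 0.0982). With the block 3 of the 7 genes were therefore called for LPS in the WT (Olr1, Cd36 and Mrc1), against 44.7% of all genes. In the NELF-B KO 1 of 7 was called with the block, against 9.15% of all genes. With the block and without the untreated library of WT-A, neither Cd36 nor Mrc1 was called for LPS in the WT.

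With Dex, Mrc1 was higher in 6 of 6 mice, by 0.05, 0.14 and 0.10 in WT-A, WT-B and WT-C and by 0.12, 0.50 and 0.07 in the NELF-B KO mice. It was the 1 receptor of the 7 with this pattern, which 9.16% of all genes showed. The fitted Dex change of Mrc1 was 0.10 in the WT (95% interval -0.55 to 0.75) and 0.23 in the NELF-B KO (-0.42 to 0.89), and neither was called. Cd36 changed with Dex by -0.16 to 0.04 in the same animal.

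Scarb1, which encodes the HDL receptor SR-BI, had the lowest SD of the 7 over the libraries. It was at 6.74 and 7.29 log2 CPM in untreated WT-A and WT-B, at 6.88, 7.27 and 6.97 with LPS and at 6.81, 7.24 and 7.01 with LPS + Dex in WT-A, WT-B and WT-C. In the NELF-B KO all 8 libraries were between 6.89 and 7.18. The fitted LPS change was 0.03 in the WT (95% interval -0.35 to 0.41) and -0.08 in the NELF-B KO (-0.46 to 0.30). The Dex change was -0.02 (-0.36 to 0.31) and -0.03 (-0.37 to 0.31).

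**Figure D3:**
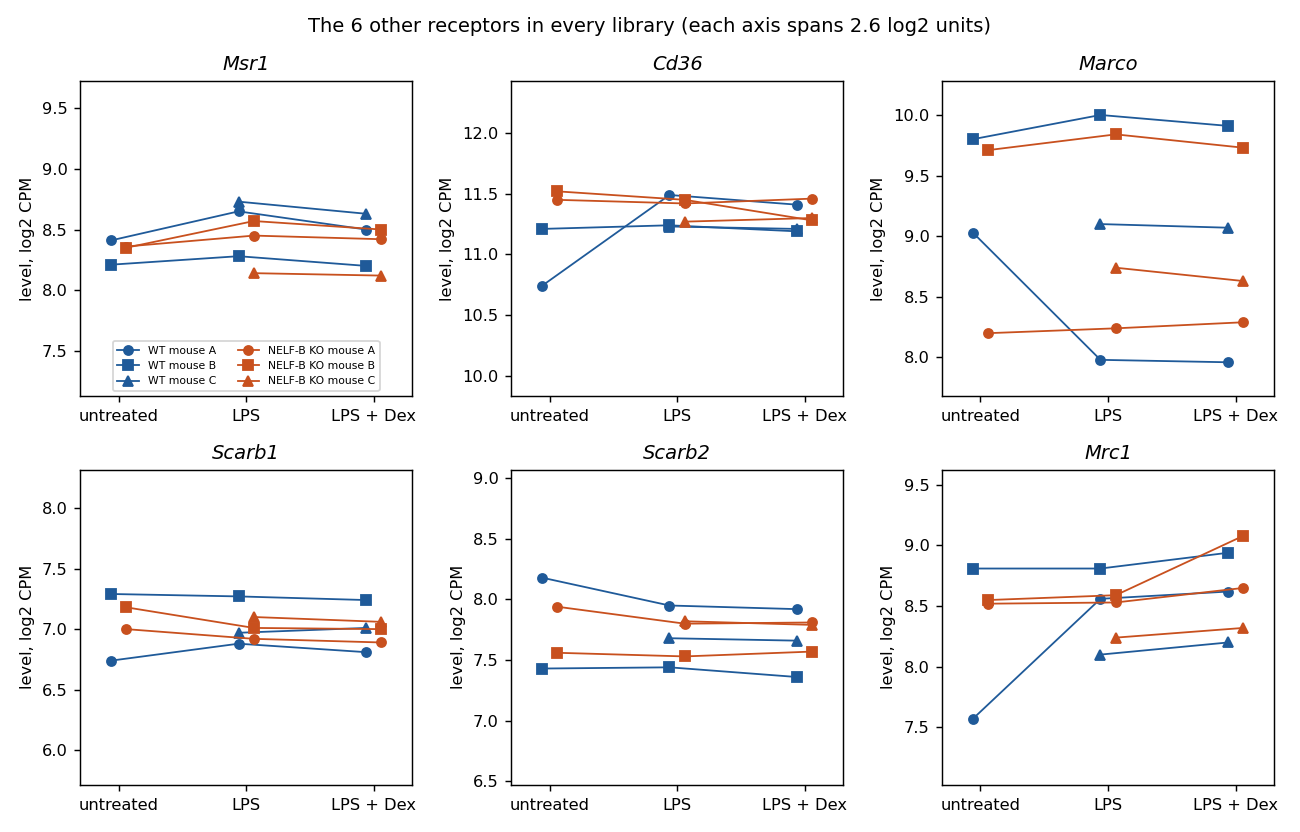
Levels of Msr1, Cd36, Marco, Scarb1, Scarb2 and Mrc1 in log2 CPM in every library, by treatment, on axes of equal span, with WT in blue, NELF-B KO in orange, a symbol for each mouse and lines joining the libraries of 1 mouse. Most lines run flat, Marco separates by mouse, and the untreated library of WT-A is at 10.74 for Cd36 and 7.57 for Mrc1, below the other 15 libraries.

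None of the 7 receptors was called for NELF-B KO against WT in limma. Of all genes, 0.0104% were called in untreated BMDM, 0.395% with LPS and 0.312% with LPS + Dex, so few calls were made for any gene in this fit. Nelfb itself was not called in untreated BMDM, where voom called it, and was called lower with LPS and with LPS + Dex. A fit with a block on the A, B and C sets called more genes. It called 113 higher and 231 lower with LPS, and 157 higher and 256 lower with LPS + Dex. At an unadjusted p under 0.05 there was 1 of the 7 in untreated BMDM (Cd36) and 0 with LPS and with LPS + Dex, and voom called 0 in all 3. The difference of Olr1 (NELF-B KO minus WT) was 0.68 untreated (95% interval -0.63 to 1.99), 0.42 with LPS (-0.65 to 1.49) and 0.49 with LPS + Dex (-0.58 to 1.56). Within the sets of mice the Olr1 difference was 0.53, 0.14 and 0.12 for the A mice (untreated, LPS and LPS + Dex), 0.84, 1.5 and 1.65 for those called B, and -0.38 and -0.30 for those called C (LPS and LPS + Dex). Its sign was therefore not the same in all sets, and the largest difference was in the set that holds WT-B.

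Cd36 was higher in untreated NELF-B KO (11.45 and 11.52 log2 CPM in mice A and B) than in untreated WT BMDM (10.74 and 11.21), with no overlap. The difference was 0.51 (95% interval 0.15 to 0.87, limma adjusted p = 0.324), and 0.71 and 0.31 in the A and B mice. It was 0.27 without the untreated library of WT-A (limma adjusted p = 0.98) and 0.745 without that of WT-B (limma adjusted p = 0.00217), so its size rests largely on the WT-A library that stands apart. With LPS it was 0.06 (-0.23 to 0.36) and with LPS + Dex 0.08 (-0.21 to 0.38). The other receptors differed between genotypes by -0.46 to 0.35 untreated, by -0.17 to 0.03 with LPS and by -0.10 to 0.10 with LPS + Dex.

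The difference between genotypes in response was tested as an interaction. In limma 0 of the 7 receptors and 0.0% of all genes were called for the difference in LPS response, and 0 of 7 and 0.0% of all genes for the difference in Dex response. At an unadjusted p under 0.05 there were 0 of 7 in both, and voom called 0 of 7 in both. For Olr1 the LPS response differed by -0.26 (NELF-B KO minus WT, 95% interval -1.96 to 1.43) and the Dex response by 0.07 (-1.44 to 1.58). With the block the Olr1 values were 0.14 (SE 0.33) and 0.07 (SE 0.28). The difference in LPS response of Cd36 was -0.45 (95% interval -0.91 to 0.02).

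**Figure D4:**
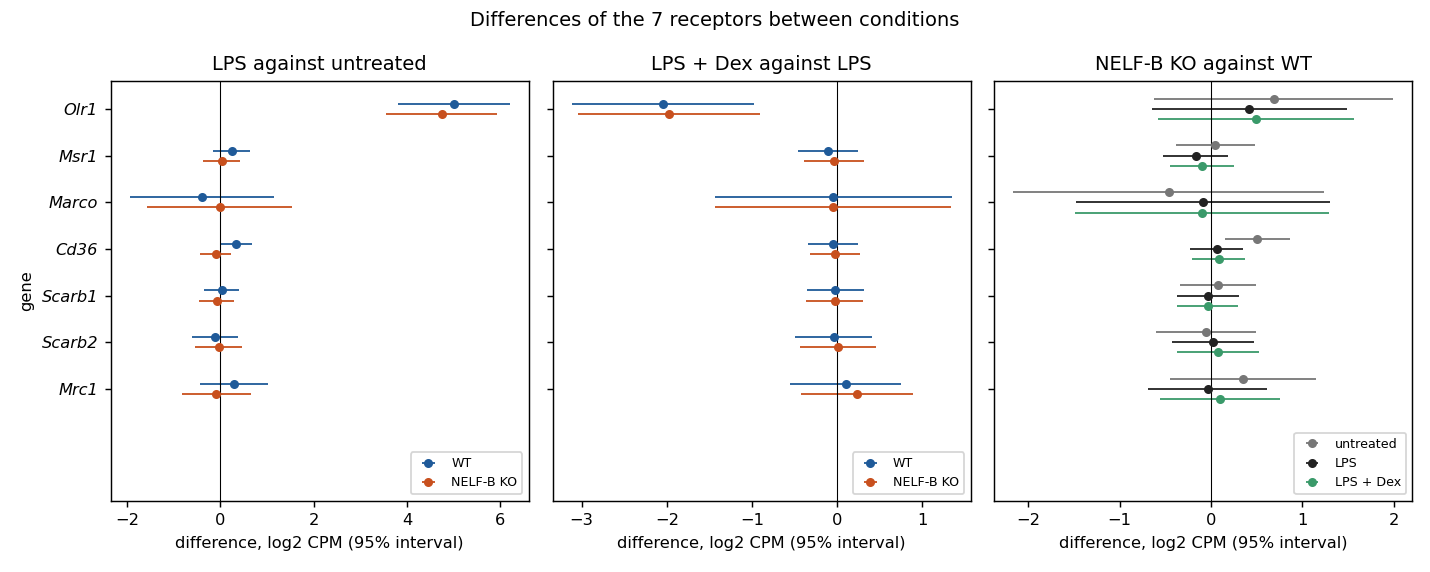
Fitted differences of the 7 receptors in log2 CPM with 95% intervals, for LPS against untreated (left), LPS + Dex against LPS (centre) and NELF-B KO against WT (right). Olr1 is the 1 gene whose interval lies away from 0 for Dex in both genotypes, -3.12 to -0.98 in the WT and -3.05 to -0.91 in the NELF-B KO, and the intervals of Marco are the widest. All intervals are from the fit without the block and include differences in level between mice.

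Over the 16 libraries the SD of log2 CPM was 2.04 for Olr1, 0.74 for Marco, 0.36 for Mrc1, 0.23 for Scarb2, 0.19 for both Cd36 and Msr1, and 0.16 for Scarb1. Among the 500 genes closest to each receptor in mean level, 99.8% had a lower SD than Olr1 and 93.4% a lower SD than Marco. The share was 75.2% for Mrc1, 47.8% for Scarb2, 32.0% for Msr1, 26.6% for Cd36 and 25.6% for Scarb1.

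The genes whose levels were most like those of each receptor over the 16 libraries were taken by Pearson's r, a description over libraries in which all genes share the same treatments and mice. For Olr1 they were Cdc42ep4 (r = 0.979), Rab11fip1 (0.971) and Pnrc1 (0.970). For Marco they included Batf (0.977) and Fgd2 (0.957), and for Scarb2 they were Cx3cr1 (0.967), Pbxip1 (0.960) and Vamp4 (0.957). For Scarb1 they were Trim41 (0.974), Slc25a45 (0.958) and Sh3gl1 (0.937), for Mrc1 Tacc1 (0.962), Phf20 (0.961) and Pum2 (0.958), and for Cd36 Adam10 (0.942), Sdcbp (0.935) and Zbtb18 (0.932). Msr1 had the lowest values, with Eprs (0.848), Lrrc16a (0.794) and Serpinb9 (0.779).

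Further scavenger and endocytic receptors were examined as a list, of which 10 of 22 had a row. None of the 10 was called in any of the 9 comparisons in limma without the block or in voom, and at an unadjusted p under 0.05 there was at most 1 per comparison. Their median LPS change was 0.21 in the WT and 0.07 in the NELF-B KO, beside 0.02 and -0.01 over all genes. The smallest adjusted p for LPS in the WT was that of Cd44, the hyaluronan receptor (0.58, limma adjusted p = 0.145). It was followed by Mertk, a receptor for dying cells (0.52, limma adjusted p = 0.205), Ly75, also known as DEC-205 (0.98, limma adjusted p = 0.224), and Colec12 (0.52, limma adjusted p = 0.252). With the block 3 of the 10 (Cd44, Mertk and Ly75) were called for LPS in the WT, against 44.7% of all genes. Their same-animal LPS changes were larger in WT-A, whose untreated library stands apart, than in WT-B, at 1.10 against 0.34 for Cd44, 1.26 against 0.03 for Mertk and 1.37 against 0.35 for Ly75. In KO-A and KO-B they were 0.29 and 0.48 for Cd44, -0.00 and 0.06 for Mertk and -0.06 and -0.39 for Ly75. With Dex, Cd44 was lower in 6 of 6 mice (-0.30 to -0.12) and Mertk higher in 6 of 6 (0.13 to 0.28). Ly75 moved in both directions. Of all genes, 10.4% were lower and 9.16% higher with Dex in all 6 mice. The median Dex change of the list was -0.04 in the WT and 0.03 in the NELF-B KO, beside -0.01 and -0.00 over all genes, and the limma adjusted p for Dex in the WT was 1 for each gene.

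Olr1 belongs to the C-type lectin-like genes. A list of genes of its region and of other myeloid lectins was examined, and 9 of its 17 genes had a row. They include Gabarapl1, which was listed for the region and does not encode a lectin. In limma 1 of the 9 was higher and 0 were lower with LPS in each genotype. Of all genes 12.3% were called in the WT and 4.78% in the NELF-B KO. The called lectin gene was Clec4e, the receptor Mincle for glycolipids of mycobacteria. Clec4e was at 5.97 and 5.10 log2 CPM in untreated WT-A and WT-B and at 9.08, 8.22 and 9.01 with LPS in WT-A, WT-B and WT-C, a change of 3.24 (SE 0.36, limma adjusted p = 5.3e-05). In the NELF-B KO the change was 3.17 (SE 0.36, limma adjusted p = 6.8e-05). With LPS + Dex Clec4e was at 8.87, 8.21 and 9.02 in the WT, and the Dex change was -0.07 in the WT and -0.00 in the NELF-B KO (limma adjusted p = 1 in both). The next smallest adjusted p for LPS in the WT were those of Gabarapl1 (-0.30, limma adjusted p = 0.227), Clec5a (0.95, limma adjusted p = 0.246) and Clec10a (-0.66, limma adjusted p = 0.306), and all 3 were called with the block, which made 4 of 9 with Clec4e against 44.7% of all genes. The same-animal changes in WT-A and WT-B were -0.46 and -0.06 for Gabarapl1, -1.23 and -0.04 for Clec10a and 0.84 and 0.69 for Clec5a, so those of Gabarapl1 and Clec10a lay mainly in the mouse whose untreated library stands apart. In the NELF-B KO the block also called Clec2d (0.58, limma adjusted p = 0.0708) and Clec5a (0.68, limma adjusted p = 0.000631), which made 3 of 9 against 9.15% of all genes. Of the LPS increase of Clec4e, 84.6% and 99.7% remained with Dex in WT-A and WT-B and 100.3% and 100.4% in KO-A and KO-B, where 17% to 24.1% of that of Olr1 remained. In limma 0 of the 9 genes of this list were called for Dex in either genotype, with 0 at an unadjusted p under 0.05 and 0 in voom. With the block 1 of 9 was called for Dex in each genotype, against 2.87% of all genes in the WT and 3.35% in the NELF-B KO. The called gene was Clec5a, at -0.32 in the WT and -0.31 in the NELF-B KO.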

How the data were processed

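Poly(A) RNA of BMDM was sequenced as 50 bp paired reads. The authors used CLC Bio Genomic Workbench for mapping to mm10 and for counting unique exon reads, applied edgeR's weighted trimmed mean scaling to the counts and deposited log2 CPM for 9614 genes. CASAVA 1.8 and FastQC are named in the submitters' processing notes. The deposited p-values and FDR values of 9 pairwise comparisons hold the authors' own tests and were not used. The authors' filter is not given in the sources used here.

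Here the deposited log2 values were fitted with limma 3.58.1 in R 4.3.3 (trend of variance on mean, 6 group means, no pseudocount, no further filter), with Python 3.11.15 for summaries. The fit was tested on simulated data that held changes for Dex in the WT only, so the LPS and genotype comparisons were not tested there. Under 3 CPM, 100.0% of values were whole reads within 0.1 reads, which gave the depth. Such depths cover counting error only. No label says whether the libraries of 1 mouse are separate cultures. The p-values measure the spread between these libraries, from 3 mice per genotype and 2 in each untreated group. The fit without the block counts libraries of 1 mouse as independent, though the estimated within-mouse correlation was 0.488. Its p-values and intervals for NELF-B KO against WT thus take their spread from repeated libraries of the same mice.

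Libraries with the same mouse number come from the same animal. Their deviations from group means had r across genes of 0.78 to 0.94 for LPS and LPS + Dex and of 0.19 to 0.82 for untreated and LPS.

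The members, the gene lists and the tests were chosen with earlier results of these data known. Named genes were the 7 members, the 3 genes most like each, the checks, and from each list up to 4 genes with the smallest adjusted p for LPS or Dex in the WT. List genes called only with the block or outside this rule (Clec5a for Dex, Clec2d, Cebpa) and H2-Aa, H2-Ab1, Cd74 and Ccr7 were named after their values were seen. Some genes that this rule takes are not reported here. Lengths are the union of GENCODE vM21 exons.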

Additional observations from a re-analysis of the deposited data

How the results depend on the processing

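Each receptor and count was recomputed with mouse as replicate block, mouse as random effect, a block on the A, B and C sets, median centring, voom on recovered reads, log2(CPM + 1), a filter on mean log2 CPM above 1, only the groups compared, an adjusted p under 0.05, and leaving out each library. Leaving out the untreated library of WT-A within the block, and leaving out the B mice, were chosen after seeing the data. Of 1596 values, 1552 kept their side of the threshold, 43 passed it and 1 turned, Marco for LPS in the WT, from -0.39, which was not called, to 0.17, which was called, in the block without that library. A further 139 values never called differed in sign.

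The number of receptors called for LPS in the WT was 1 and became 3 with the replicate block, 2 with the random effect, 2 with the block on sets, 2 in the block without the untreated library of WT-A, 4 without the B mice, and 1 to 4 on leaving out single libraries. The 4 came without the untreated library of WT-B, which left WT-A as the untreated WT. For LPS in the NELF-B KO it was 1, became 3 in the block without that library of WT-A, and stayed 1 on leaving out any library.

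For Dex it was 0 in both genotypes. It became 1 with the replicate block, random effect, block on sets, voom, log2(CPM + 1) and without the B mice in each genotype, with only the groups compared in the NELF-B KO, and 2 in the block without the untreated library of WT-A. It was 0 to 1 on leaving out single libraries. Olr1 for Dex in the WT was called without the untreated library of WT-A (limma adjusted p = 0.0607) or B (0.0603) or the LPS library of WT-B (0.0963, change -2.46). In the NELF-B KO it was called without the same 3 (0.0638, 0.0631 and 0.0885) or the LPS + Dex library of WT-B (0.0476). Over all fits that left out 1 library, called or not, its change was -2.46 to -1.50 in the WT and -2.19 to -1.84 in the NELF-B KO, with limma adjusted p up to 0.488 and 0.467.

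For NELF-B KO against WT untreated the number was 0, and 2 without the untreated library of WT-B (Cd36 and Mrc1, range 0 to 2) and 2 without the B mice. For the genotype difference in LPS response it was 0, with 0 to 2 on leaving out single libraries and 1 without the B mice. The cause of these shifts was not tested. The untreated groups of 2 libraries limit all LPS comparisons, and 20 to 96 reads stand behind each untreated Olr1 value.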

Other observations

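Of 24 genes of lipoprotein uptake and cholesterol handling, all 24 had a row. In limma without the block 2 were called for LPS in the WT, against 12.3% of all genes. In the NELF-B KO 0 were called (2 at an unadjusted p under 0.05 and 0 in voom), against 4.78% of all genes. With the block 8 and 3 were called, against 44.7% and 9.15% of all genes. The median LPS change of the 24 genes was 0.05 in the WT and 0.06 in the NELF-B KO, beside 0.02 and -0.01 over all genes. Mylip, a ubiquitin ligase, rose with LPS by 0.78 on the log2 scale in the WT (SE 0.26, limma adjusted p = 0.0943), and its LPS difference in the NELF-B KO was 0.13 (limma adjusted p = 1). Its same-animal LPS change was 1.41 in WT-A, whose untreated library stands apart, and 0.03 in WT-B, 0.30 in KO-A and 0.13 in KO-B. With Dex 0 of the 24 were called in limma in either genotype, with 1 at an unadjusted p under 0.05 in each, while voom called 0 in the WT and 1 in the NELF-B KO (Mylip). The same-animal Dex change of Mylip was -1.03 to -0.81, lower in 6 of 6 mice, a pattern that 10.4% of all genes showed.

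Of 15 transcription factors linked to these receptors, all 15 had a row. For LPS 5 were higher and 1 lower (Cebpa) in the WT, where 12.3% of all genes were called. In the NELF-B KO 4 were higher, against 4.78% of all genes called. With the block 11 were called in the WT and 6 in the NELF-B KO, against 44.7% and 9.15% of all genes. Jun and Fos, which form AP-1, rose by 2.02 and 1.92 in the WT (limma adjusted p = 5.7e-05 and 0.000514) and by 2.26 and 2.39 in the NELF-B KO. Nfe2l2, a regulator of the oxidative stress response, rose by 0.92 in the WT (limma adjusted p = 0.000578), and Nfkb1 by 0.72 (limma adjusted p = 0.0314). The same-animal LPS change of Nfkb1 was 1.15 in WT-A, whose untreated library stands apart, 0.34 in WT-B, 0.35 in KO-A and 0.60 in KO-B. Nfkb1 was not called for LPS in the NELF-B KO. With Dex 0 of the 15 were called without the block or in voom. At an unadjusted p under 0.05 there were 2 in the WT and 1 in the NELF-B KO. With the block 2 (Jun and Fos) were called in each genotype, against 2.87% of all genes in the WT and 3.35% in the NELF-B KO. The Dex changes of Jun and Fos were positive in 6 of 6 mice, 0.36 to 0.80 for Jun and 0.28 to 0.58 for Fos. This pattern was shown by 9.16% of all genes.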
